A study of Gallus gallus with 3 samples.

Results

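Cadherins are the calcium-dependent adhesion proteins that hold cells together at adherens junctions, and the 7 genes described here, CDH1, CDH2, CDH4, CDH5, CDH7, CDH11 and CDH20, were chosen by their gene symbol in the platform annotation of the Affymetrix chicken array. They are 7 of 13009 named genes and are read by 13 of 38439 probe sets. RNA came from White Leghorn chicken embryos, from cells pooled over many embryos and sorted with magnetic beads by the HNK1 surface epitope of neural crest cells (NCC), with no treatment or genetic change named. One trunk array is titled HH16, a stage at which trunk NCC migrate, and one HH19, when they begin to condense into dorsal root ganglia. The third holds NCC of HH9 embryos, cranial by the methods of the study and trunk by its source label. There was 1 array per stage, so no difference below has a replicate check, no p-value was computed, and the number of arrays limits the precision.

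A classical cadherin binds the same or a related cadherin on the next cell through its outer domains, and its inner tail binds p120-catenin and beta-catenin, which alpha-catenin couples to actin. Premigratory crest cells sit in the neural tube epithelium, change the cadherins on their surface as they leave it, travel with weaker contacts, and build stronger ones again when they gather into ganglia. CDH2 (N-cadherin) is the cadherin of the neural tube and of ganglia, CDH7 is known from migrating crest of the chick, and CDH11 from mesenchyme and from cranial crest of frogs. CDH1 is the cadherin of epithelia and CDH5 (VE-cadherin) that of endothelial junctions. CDH4 (R-cadherin) is known from the retina and brain, and CDH20 (MN-cadherin) from motor neurons of the chick.

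For each trunk array the title gives one of these stages and the age label the other. The cells are therefore called HH16-titled and HH19-titled NCC after the titles, without taking either stage as settled. Taken by the titles, the trunk comparison runs opposite to the direction in which the study reads its stages, and taken by the age labels it runs the same way. Signals are MAS5 intensities on a linear scale. Signals under a floor of 99.8 were raised to it before a ratio was formed, a ratio with 1 signal under the floor is a bound, and no ratio was formed where both signals were under it. The crest label was checked on SOX10, the transcription factor of migrating crest, which had signals of 12315 in HH9 NCC, 15746 in HH16-titled NCC and 17338 in HH19-titled NCC. B3GAT1, an enzyme that builds the HNK1 epitope, had signals of 415, 308 and 269.6 in that order. SOX10 was the brightest crest marker on every array, and other crest markers were less even. SNAI2, SOX8, SOX9 and ETS1 were at least 2-fold lower in HH16-titled NCC than in HH9 NCC. All 11 measured crest markers were at or above the floor on at least 1 array, but so were all 17 endothelial and all 10 mesenchyme markers. The floor itself was passed by 58.8% of all probe sets in HH9 NCC, 61.0% in HH16-titled NCC and 60.2% in HH19-titled NCC. This count therefore does not tell cell types apart. In bulk RNA, fewer cells of a type and less RNA per cell cannot be told apart, and stage, axial level and dissection cannot be told apart between the HH9 array and the trunk arrays.

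Of the 13 cadherin probe sets, 9 lay at or above the floor on all 3 arrays, 2 on some arrays only, and 2, both of CDH20, on none. To measure how closely probe sets of a gene agree on the same arrays, the brightest and next brightest were compared. This was done in 3064 genes with both at least 2 times the floor on every array. Their log2 ratios of HH16-titled over HH19-titled NCC lay a median of 0.18 apart, and those of HH16-titled over HH9 NCC a median of 0.21 apart. In 90 of 100 genes these gaps were at most 0.52 and 0.58. They cover differences between probe sets, and not differences between embryos or error that all probe sets of an array share.

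CDH2 and CDH7, the cadherins of ganglia and of migrating crest, were both brighter on the trunk arrays than in HH9 NCC, and differed little between the trunk arrays. The brightest probe set of CDH2 (Entrez gene 414745) had signals of 884 in HH9 NCC, 2580.2 in HH16-titled NCC and 2121 in HH19-titled NCC. Its second probe set had signals of 178 in HH9 NCC, 394 in HH16-titled NCC and 319 in HH19-titled NCC. Both probe sets have HH9 lowest and HH16-titled NCC highest. By the brightest probe set CDH2 was 2.92-fold higher in HH16-titled NCC and 2.40-fold higher in HH19-titled NCC than in HH9 NCC, and by the second 2.21-fold and 1.79-fold. The 2 readings thus share a direction, and for HH19-titled NCC only the brighter one passed 2-fold. Between the trunk arrays the 2 probe sets of CDH2 gave log2 ratios of 0.28 and 0.31, HH16-titled over HH19-titled.

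The only CDH7 probe set (Entrez gene 374007) had signals of 929 in HH9 NCC, 2935 in HH16-titled NCC and 2498 in HH19-titled NCC. CDH7 was 3.16-fold higher in HH16-titled NCC and 2.69-fold higher in HH19-titled NCC than in HH9 NCC, and its log2 ratio between the trunk arrays was 0.23. Among all probe sets with a ratio, CDH7 lay at percentile 97.8 for HH16-titled over HH9 NCC and at percentile 98 for HH19-titled over HH9 NCC, and the brightest CDH2 probe set at percentiles 97.4 and 97.3. Between the trunk arrays both stood well inside the distribution, at percentile 73.1 for CDH7 and 77.1 for CDH2. No trunk array was 2-fold apart from the other for either gene.

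**Figure D1:**
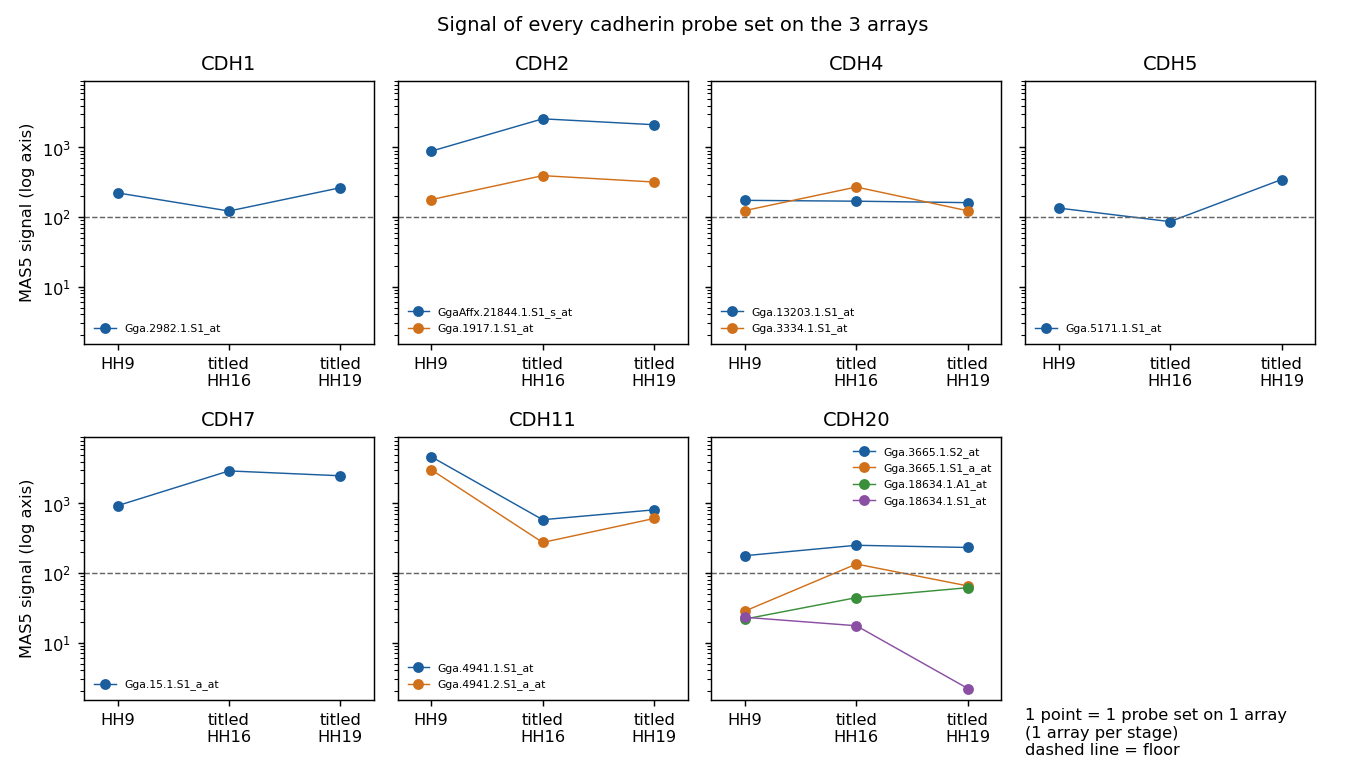
MAS5 signal (log axis) of each of the 13 cadherin probe sets in HH9 NCC and on the arrays titled HH16 and HH19, with the floor of 99.8 as a dashed line; lines only join the points of 1 probe set. CDH2 and CDH7 are lowest on HH9, both CDH11 probe sets are highest on HH9, and CDH5 is highest in HH19-titled NCC.

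CDH11 (Entrez gene 415797), the cadherin of mesenchyme, went the other way and had the largest ratios of the 7 genes in both comparisons with HH9. Its brightest probe set had signals of 4694 in HH9 NCC, 584 in HH16-titled NCC and 810.0 in HH19-titled NCC. The second had signals of 3051 in HH9 NCC, 275 in HH16-titled NCC and 609 in HH19-titled NCC. HH9 is the high array and HH16-titled NCC the low one in both readings. By these probe sets CDH11 was 8.03-fold and 11.1-fold lower in HH16-titled NCC, and 5.80-fold and 5.01-fold lower in HH19-titled NCC, than in HH9 NCC. Its log2 ratios of HH16-titled over HH9 NCC, -3.01 and -3.47, lay at percentiles 0.105 and 0.042 of the 25157 probe sets with a ratio. Those of HH19-titled over HH9 NCC, -2.53 and -2.32, lay at percentiles 0.119 and 0.175 of 24886. Between the trunk arrays CDH11 had log2 ratios of -0.47 by the brightest probe set and -1.15 by the second, HH16-titled over HH19-titled, so the readings share a direction, and the second alone was past 2-fold, at 2.21-fold lower. The gap between them, 0.67, is wider than in 90 of 100 genes.

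By the brightest probe set of each of the 7 genes, CDH5 and CDH1 were the ones at least 2-fold apart between the trunk arrays. Both, cadherins of endothelium and of epithelia, were lower in HH16-titled NCC. CDH5 (Entrez gene 374068, 1 probe set) had signals of 135 in HH9 NCC, 86.0, under the floor, in HH16-titled NCC and 346 in HH19-titled NCC. CDH5 was at least 3.46-fold lower in HH16-titled NCC than in HH19-titled NCC, and 2.57-fold higher in HH19-titled NCC than in HH9 NCC. HH19-titled NCC stand above the other two. The log2 ratio of HH16-titled over HH9 NCC was at most -0.43.

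CDH1 (Entrez gene 415860, 1 probe set) had signals of 223 in HH9 NCC, 122 in HH16-titled NCC and 264 in HH19-titled NCC. The level in HH16-titled NCC was the lowest, and CDH1 was 2.16-fold lower there than in HH19-titled NCC and 1.82-fold lower than in HH9 NCC. The difference from HH9 NCC passed 2-fold once each array was centred on its median or the arrays were quantile normalized. In HH19-titled NCC the log2 ratio over HH9 was 0.25. Both genes are dim. Among 7302 probe sets whose brighter trunk array lay between 199.7 and 499.2, as theirs did, 7.15% differed by at least 2-fold between the trunk arrays. With the floor raised to 235, the 60th percentile of all signals, neither CDH1 nor CDH5 was 2-fold apart. Neither could be, because their brightest signals lay less than 2-fold above that floor.

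CDH4 and CDH20, known from neural tissue, were less than 2-fold apart by their brightest probe sets. The brightest CDH4 probe set (Entrez gene 419222) had signals of 174 in HH9 NCC, 169 in HH16-titled NCC and 161 in HH19-titled NCC, and its log2 ratios lay between -0.11 and 0.07. The second had signals of 124 in HH9 NCC, 270.2 in HH16-titled NCC and 123 in HH19-titled NCC. It was 2.20-fold higher in HH16-titled NCC than in HH19-titled NCC and 2.18-fold higher than in HH9 NCC. The readings of CDH4 do not match: the log2 ratios of its probe sets lay 1.07 apart between the trunk arrays, and 1.16 apart for HH16-titled over HH9 NCC. Of the 3064 genes, all brighter than CDH4, 0.783% and 2.02% had a gap of over 1 in these comparisons, so the values of CDH4 are uncertain.

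CDH20 (Entrez gene 373927) had 1 probe set above the floor on all arrays, with signals of 178 in HH9 NCC, 251 in HH16-titled NCC and 233 in HH19-titled NCC. Its log2 ratios were 0.11 for HH16-titled over HH19-titled NCC, 0.50 for HH16-titled over HH9 NCC and 0.39 for HH19-titled over HH9 NCC. A second probe set had signals of 28.5 in HH9 NCC, 135 in HH16-titled NCC and 65.4 in HH19-titled NCC, of which only HH16-titled NCC was above the floor. Its other 2 probe sets, built on the opposite strands of 1 shared sequence by their names, ranged from 2.20 to 61.7 and stayed under the floor on every array. HH9 was the lowest array by the probe set above the floor on all arrays, and its differences stayed under 2-fold. By the second probe set CDH20 was at least 1.35-fold higher in HH16-titled NCC than on either other array, a bound that leaves its true size unmeasured.

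Counted by the brightest probe set, 0 of the 7 cadherins were at least 2-fold higher and 2 were at least 2-fold lower in HH16-titled NCC than in HH19-titled NCC. Over all 10681 genes with a ratio these shares were 1.93% and 1.54%. In HH16-titled NCC, 2 cadherins (CDH2 and CDH7) were higher and 1 (CDH11) was lower than in HH9 NCC, where 6.8% of all genes were higher and 3.2% lower. In HH19-titled NCC, 3 cadherins (CDH2, CDH5 and CDH7) were higher and 1 (CDH11) was lower than in HH9 NCC, where 5.34% of all genes were higher and 2.58% lower. Counted by probe set, 1 of 11 cadherin probe sets was higher and 3 were lower in HH16-titled than in HH19-titled NCC (all probe sets 2.22% and 1.3%, or 3.52% either way). Over HH9 NCC, 4 of 11 were higher and 2 lower in HH16-titled NCC (all 6.77% and 2.87%, or 9.64%), and 3 of 10 were higher and 2 lower in HH19-titled NCC (all 4.77% and 2.31%, or 7.09%). In either direction the brightest probe sets give 2, 3 and 4 of 7 cadherins, against 3.46%, 9.99% and 7.92% of all genes. Under this floor no gene below 199.7 on both arrays of a comparison could be called. Such genes, CDH4 by its brightest probe set among them, count in all these shares. Among probe sets whose brighter array lay between 199.7 and 499.2, 7.15%, 16.1% and 12.5% were 2-fold apart. Above 1996.9 the shares were 2.7%, 9.95% and 6.53%. The median log2 ratio of the 7 cadherins was 0.07 between the trunk arrays, -0.04 for HH16-titled over HH9 NCC and 0.39 for HH19-titled over HH9 NCC, and the medians over all genes were -0.02, -0.01 and 0.00. The comparisons share arrays, so their counts are not independent, and the 7 were chosen with earlier results of these data known. The shares over all genes thus describe the arrays and are not a test of the 7. Of the probe sets at least 2-fold apart, 70.3% were higher in HH16-titled NCC than in HH9 NCC, and 55.5% after median centring and 59.9% after quantile normalization. For HH19-titled over HH9 NCC this share was 67.3%, and 55.7% after median centring. The medians of all signals on the trunk arrays lay 0.16 (titled HH16) and 0.11 (titled HH19) above that of HH9 on the log2 scale. The smallest log2 ratio over HH9 among the probe sets of CDH2, CDH7 and CDH11 was 0.84 in size, by the second CDH2 probe set in HH19-titled NCC. With 1 array per stage, error of single arrays that median centring and quantile normalization do not remove was not tested.

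**Figure D2:**
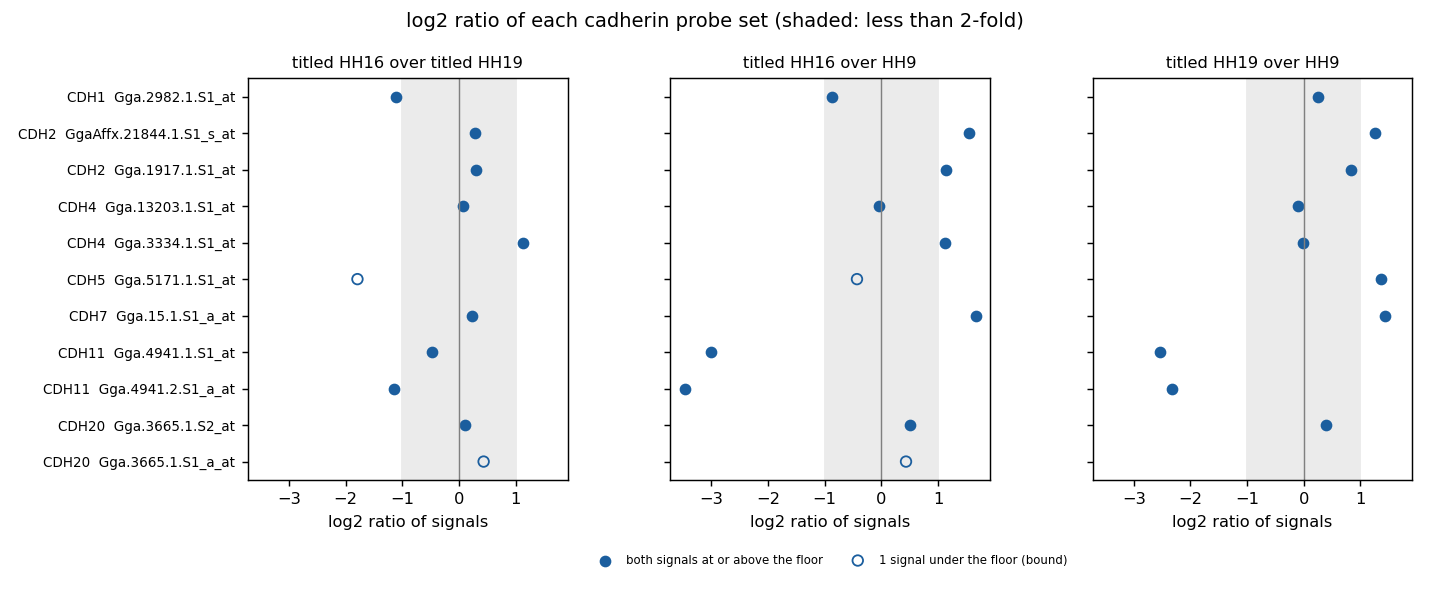
log2 ratio of the 11 cadherin probe sets that passed the floor on any array, for HH16-titled over HH19-titled NCC and for each trunk array over HH9; the shaded band is less than 2-fold and open points are bounds. CDH11 lies at -3.47 to -2.32 in both comparisons with HH9, and CDH2 and CDH7 lie at 0.84 to 1.66.

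Over the 3 arrays CDH2, by its brightest probe set, and CDH7 had nearly the same pattern. The distance between their log2 signals, each centred on its own mean, was 0.12, and 21 of 8967 bright genes lay nearer to CDH2 than CDH7 did. The 2 probe sets of CDH2 were less alike, with log2 ratios over HH9 that lay 0.40 apart in HH16-titled NCC and 0.42 in HH19-titled NCC. CDH11 lay far from both, at 3.45 from CDH2 and 3.56 from CDH7. By the same measure the genes nearest to CDH2 were UBE2J1, RNF150 and SMOC1, at 0.006 to 0.021, and those nearest to CDH7 were TP53I11, FAAH and FAM167B, at 0.015 to 0.031. The genes nearest to CDH11 were SMOC2 and COL27A1, which encode matrix proteins, and the cardiac actin gene ACTC1, at 0.099 to 0.26. SMOC2 had signals of 1333 in HH9 NCC, 173 in HH16-titled NCC and 218 in HH19-titled NCC. CDH1 lay nearest to FOXA2, a forkhead factor of endoderm, notochord and floor plate, then to TTC39A and F3 (tissue factor), at 0.021 to 0.036. CDH5 had no gene closer than 0.22, and its nearest were MARCH7, ASTL and VSX1. The nearest genes of CDH20 were CRAMP1, NUDT19 and DAB2IP, at 0.003 to 0.006. In HH16-titled NCC, FOXA2, ACTC1 and ASTL were under the floor, at 67.4, 82.1 and 35.6. Like CDH5, these genes were raised to the floor there, so their distances rest partly on it. Only 3 arrays set each pattern, so many genes share one, and these likenesses describe these arrays only.

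The CDH genes outside these 7 that were 2-fold apart in any comparison were CDH3, CDH19 and CDH23. Of 12 other classical and atypical cadherins on the array, 9 had a ratio between the trunk arrays, of which 1 was at least 2-fold higher and 1 lower in HH16-titled NCC. CDH19, known from Schwann cell precursors of rodents, had signals of 165 in HH9 NCC, 443 in HH16-titled NCC and 194 in HH19-titled NCC, and was 2.29-fold higher in HH16-titled NCC than in HH19-titled NCC and 2.69-fold higher than in HH9 NCC. CDH3, read by a bright probe set with signals of 2530.0 in HH9 NCC, 521 in HH16-titled NCC and 1631 in HH19-titled NCC, was 3.13-fold lower in HH16-titled NCC than in HH19-titled NCC and 4.85-fold lower than in HH9 NCC. Its pattern has HH16-titled NCC lowest, as has that of CDH1. CDH23, a cadherin of hair cell bundles, was at least 2.45-fold lower in HH19-titled NCC than in HH9 NCC and 2.22-fold lower in HH16-titled NCC. CDH6, the cadherin of premigratory crest in the chick, had signals of 51.6 in HH9 NCC, 44.1 in HH16-titled NCC and 122 in HH19-titled NCC, and passed the floor in HH19-titled NCC alone. Of 23 protocadherins and FAT cadherins, 19 had a ratio for HH16-titled over HH9 NCC. Of these, 3 (PCDH8, PCDH1 and PCDH20) were at least 2-fold higher in HH16-titled NCC and 0 were lower (all genes 6.8% and 3.2%). Between the trunk arrays 19 had a ratio, of which 1 (PCDH9) was higher and 1 (CELSR3) lower in HH16-titled NCC (all genes 1.93% and 1.54%). PCDH8, a protocadherin of paraxial mesoderm, was 3.67-fold higher in HH16-titled NCC and 2.51-fold higher in HH19-titled NCC than in HH9 NCC. Of 3 desmosomal cadherins 0 were 2-fold apart in any comparison, but DSG4 was under the floor on every array and had no ratio. DSC1 passed the floor in HH19-titled NCC alone, at 105, so under this floor only DSG2 could have reached 2-fold.

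Catenins bind the cadherin tail. Of 15 catenins and adaptors, 14 had a ratio between the trunk arrays, and CTNNA3 was under the floor on both. Of these 14, 0 were at least 2-fold apart, which is near the 3.46% of all genes. From HH9 NCC 1 was 2-fold apart, the junction adaptor PLEKHA7, 2.30-fold higher in HH16-titled NCC. CTNNB1 (beta-catenin) had signals of 18996 in HH9 NCC, 16152 in HH16-titled NCC and 17614 in HH19-titled NCC. CTNND1 (p120-catenin) had log2 ratios over HH9 of -0.52 in HH16-titled NCC and -0.45 in HH19-titled NCC, and CTNNA1 (alpha-catenin) of -0.28 and -0.04. The median of this list was -0.10 between the trunk arrays. These 3 catenins were thus bright in every array and less than 2-fold apart.

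Repressors of cadherin genes and factors of the epithelial to mesenchymal transition (EMT) were also set beside the cadherins. Of 12 on the array, 11 had a ratio between the trunk arrays. Of these, 3 (TWIST1, SNAI1 and SOX9) were at least 2-fold lower and 0 higher in HH16-titled NCC than in HH19-titled NCC (all genes 1.54% and 1.93%). All 3 were under the floor in HH16-titled NCC, at 15.2, 87.5 and 97.8, so their ratios are bounds. SNAI1, a repressor of CDH1 in mammals, had signals of 311 in HH9 NCC, 87.5 in HH16-titled NCC and 449 in HH19-titled NCC, and was at least 4.50-fold lower in HH16-titled NCC than in HH19-titled NCC. SNAI1 and CDH1 were thus both lowest in HH16-titled NCC. SNAI2, the Snail relative of chick crest, was 3.79-fold lower in HH16-titled NCC and 3.13-fold lower in HH19-titled NCC than in HH9 NCC. ZEB2 (SIP1), also a repressor that acts in EMT, was 2.48-fold and 2.94-fold higher in these cells than in HH9 NCC. Over HH9, 10 had a ratio in HH16-titled NCC, of which 1 was higher and 5 were lower. In HH19-titled NCC 11 had a ratio over HH9, of which 1 was higher and 2 were lower. Of 10 proteases and regulators of cadherin cleavage, 9 had a ratio between the trunk arrays. Of these, 1 was at least 2-fold higher and 1 lower in HH16-titled than in HH19-titled NCC. ADAM10, a sheddase of CDH2, had log2 ratios over HH9 of -0.53 in HH16-titled NCC and -0.46 in HH19-titled NCC. ADAM12 was 6.11-fold higher in HH16-titled NCC than in HH9 NCC and 3.20-fold higher than in HH19-titled NCC. The matrix protease gene MMP2 was 2.27-fold lower in HH16-titled NCC than in HH19-titled NCC.

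**Figure D3:**
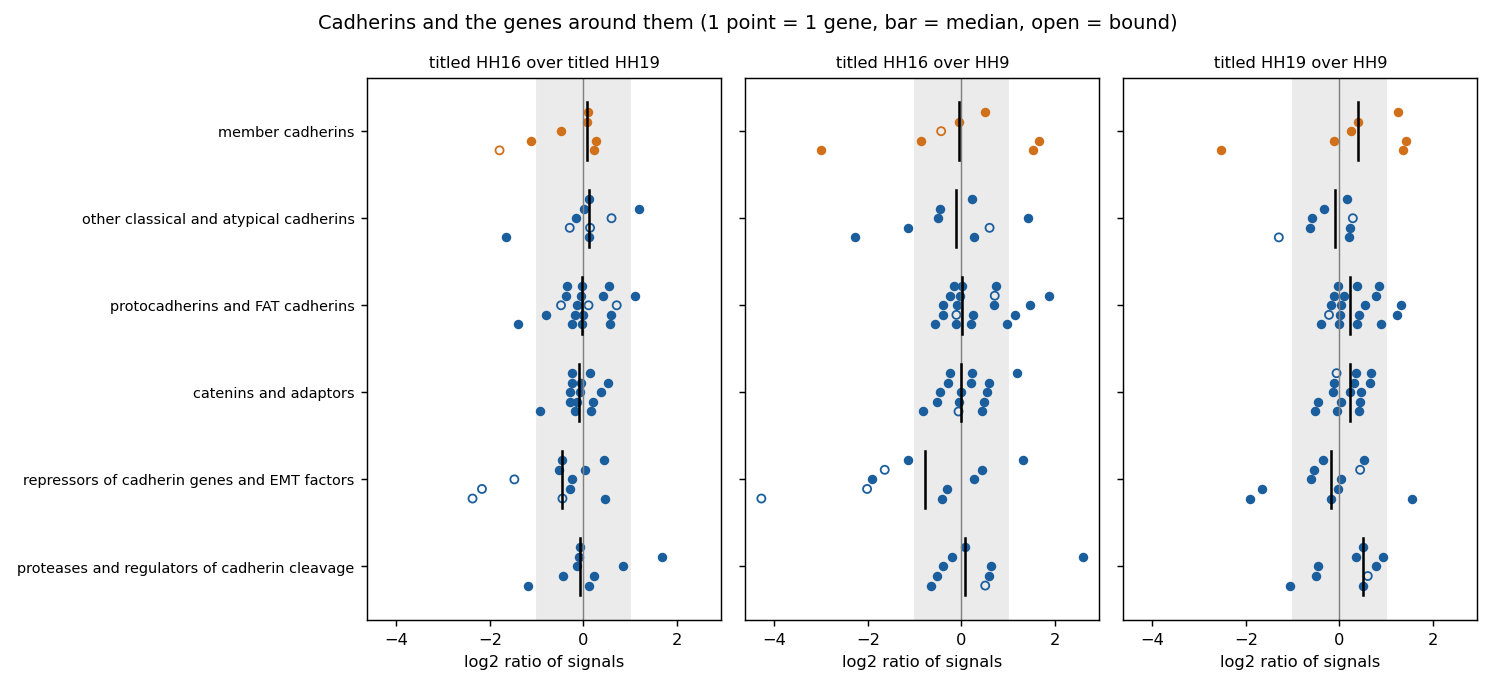
log2 ratio of each gene of the 7 cadherins and of 5 lists around them in the 3 comparisons; bars are list medians, open points are bounds and the shaded band is less than 2-fold. The 14 catenins and adaptors with a ratio between the trunk arrays stay inside the band there, and CDH11 is the leftmost of the cadherins in both comparisons with HH9.

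Markers of other cell types moved beside some of these cadherins, and their part in the results was not tested. Of 17 endothelial markers, 0 were at least 2-fold higher and 2 (VWF and SOX18) were at least 2-fold lower in HH16-titled NCC than in HH19-titled NCC, with a list median of -0.14 and summed signals of 3186 in HH9 NCC, 2835 in HH16-titled NCC and 3550 in HH19-titled NCC. VWF, the clotting factor of endothelium, had signals of 162 in HH9 NCC, 148 in HH16-titled NCC and 387 in HH19-titled NCC, highest where CDH5 was highest. The endothelial receptor gene KDR did not share this order, with 125 in HH9 NCC, 294 in HH16-titled NCC and 355 in HH19-titled NCC. The junction gene PECAM1 had 214, 222 and 158 in that order. Over HH9 NCC 3 endothelial markers (VWF, KDR and TAL1) were higher and 1 (ERG) lower in HH19-titled NCC, where CDH5 was higher too. Of the 17, 14 lay at or above the floor in HH9 NCC, 12 in HH16-titled NCC and 15 in HH19-titled NCC, and 16 had a ratio between the trunk arrays.

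Of 13 epithelial and ectoderm markers, among them CDH3, 4 (CLDN1, KRT24, CDH3 and ESRP2) were at least 2-fold lower and 0 higher in HH16-titled NCC than in HH19-titled NCC. Their median was -0.59 in this comparison, over the 11 with a ratio. The same 4 were at least 2-fold lower in HH16-titled NCC than in HH9 NCC, again with 0 higher, among 12 with a ratio. Summed signals of the 13 were 10705 in HH9 NCC, 3721 in HH16-titled NCC and 6348 in HH19-titled NCC. The sum was lowest where CDH1 was lowest, but highest in HH9 NCC, whereas CDH1 was highest in HH19-titled NCC. TP63, CLDN4 and KRT14 went the other way and were highest in HH16-titled NCC. TP63 had signals of 368 in HH9 NCC, 600 in HH16-titled NCC and 328 in HH19-titled NCC. EPCAM, an adhesion protein of epithelia, had signals of 1559 in HH9 NCC, 1016 in HH16-titled NCC and 1455 in HH19-titled NCC. At or above the floor were 12 of the 13 in HH9 NCC, 10 in HH16-titled NCC and 11 in HH19-titled NCC.

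Of 10 mesenchyme markers, 3 (PDGFRA, TWIST1 and PRRX1) were at least 2-fold lower and 1 (COL1A2) was higher in HH16-titled NCC than in HH9 NCC. PDGFRA, the growth factor receptor of mesenchymal crest, had signals of 2499 in HH9 NCC, 121 in HH16-titled NCC and 237 in HH19-titled NCC, with the same order of arrays as CDH11. In HH19-titled NCC, 2 of the 10 were lower and 2 (LUM and POSTN) were higher than in HH9 NCC, with a list median of 0.13, while CDH11 was lower there. Summed signals of this list were 9898 in HH9 NCC, 12140.1 in HH16-titled NCC and 8081 in HH19-titled NCC. These sums did not have the order of arrays of CDH11. COL1A2 added most to them, and only without it did the other 9 have that order, at 6112 in HH9 NCC, 1261 in HH16-titled NCC and 3428 in HH19-titled NCC. PDGFRA and TWIST1, at 2499 and 1941, added most of the HH9 sum of these 9. COL3A1, FOXC2, LUM and POSTN were instead highest in HH19-titled NCC. All 10 were at or above the floor in HH9 NCC and in HH19-titled NCC, and 6 in HH16-titled NCC, where TWIST1, PRRX1, FOXC2 and LUM were under it.

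Some neuron and neural tube markers were at least 2-fold higher beside CDH2 and CDH7 on the trunk arrays. Of 9 neuron markers, 7 were at least 2-fold higher in HH16-titled NCC than in HH9 NCC. In HH19-titled NCC 8 had a ratio over HH9, of which 4 were at least 2-fold higher. Summed signals of the 9 were 8646 in HH9 NCC, 33485 in HH16-titled NCC and 12530 in HH19-titled NCC. The neuron marker DCX had log2 ratios over HH9 NCC of -0.28 in HH16-titled NCC and -0.74 in HH19-titled NCC. Of 11 neural tube markers, 10 had a ratio for HH16-titled over HH9 NCC, of which 3 were at least 2-fold higher. In HH19-titled NCC 11 had a ratio over HH9, of which 8 were at least 2-fold higher. Between the trunk arrays 6 neuron markers were at least 2-fold higher and 5 neural tube markers at least 2-fold lower in HH16-titled NCC, where the log2 ratios of CDH2 and CDH7 were 0.28 and 0.23. Of 7 blood markers, 5 had a ratio between the trunk arrays. Of these, 1 (SPI1) was higher and 1 (HBE) lower by 2-fold in HH16-titled NCC than in HH19-titled NCC. Of 11 crest markers 1 was higher (SOX8) and 1 lower (SOX9) in that comparison. Over HH9 NCC, 1 crest marker (NGFR) was higher and 4 (SNAI2, SOX8, SOX9 and ETS1) were lower in HH16-titled NCC. In HH19-titled NCC 0 were higher and 2 (SNAI2 and SOX8) lower than in HH9 NCC.

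**Figure D4:**
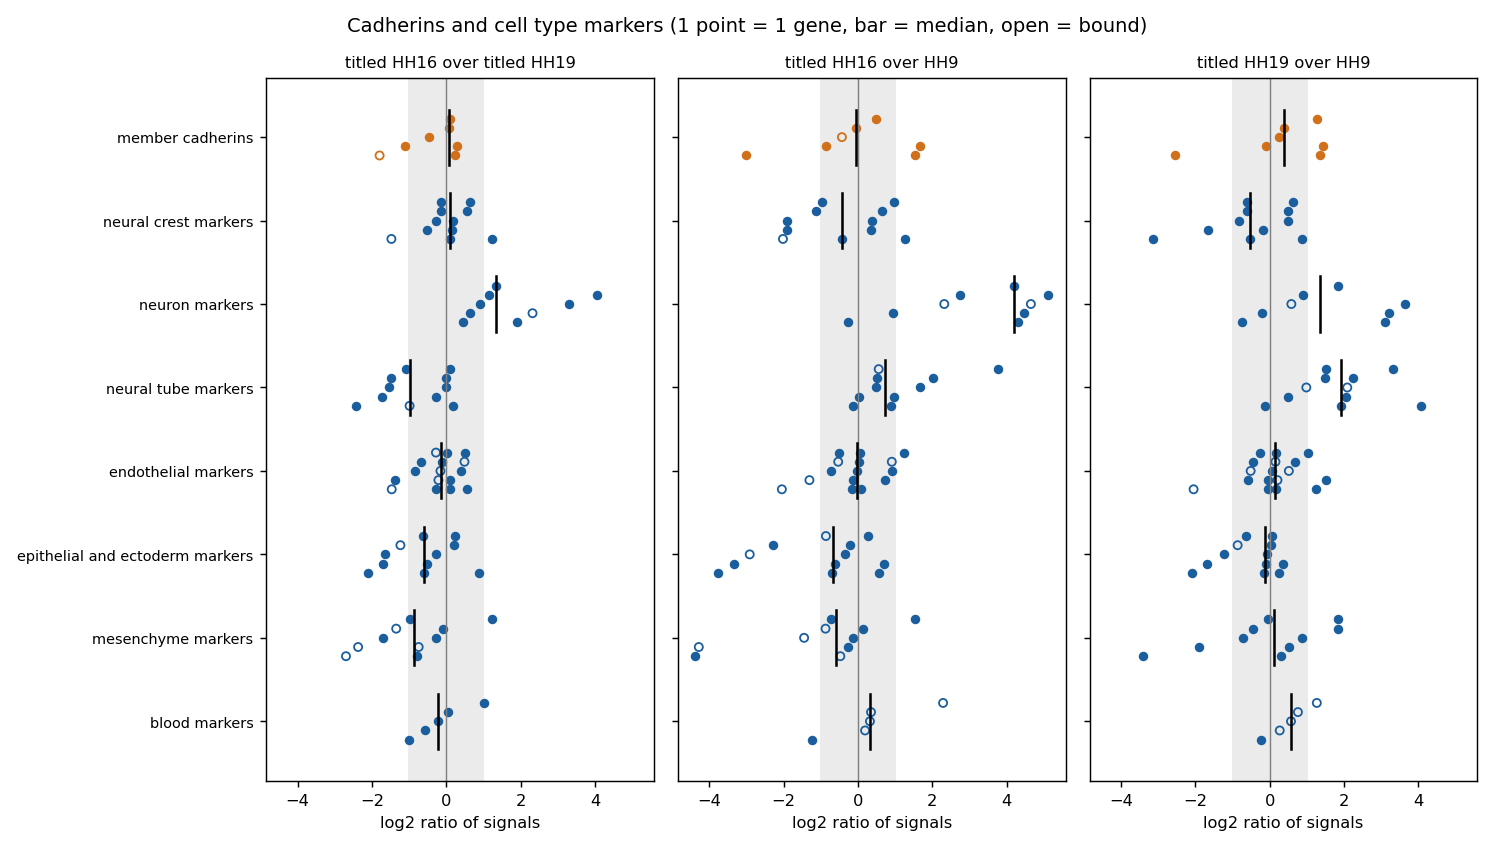
log2 ratio of each gene of the 7 cadherins and of 7 marker lists in the 3 comparisons; bars are list medians, open points are bounds and the shaded band is less than 2-fold. Neuron markers have a median of 4.19 for HH16-titled over HH9 NCC, and epithelial markers have a median of -0.59 between the trunk arrays.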

How the data were processed

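HNK1-sorted chicken NCC were profiled on the Affymetrix chicken array, and 3 arrays were used, 1 per stage. The deposited values are intensity on a linear scale from MAS5, which the authors had an outside company produce. The settings of MAS5 were not given in the sources used here, and neither was the nature of a column (1 of the 3 biological replicates that the methods name, a pool or their mean). As tested on the values, the mean signal of each array with 2% trimmed at each end is about 500. Leaving out 96 control probe sets of 38535, 27168 carry 1 gene symbol, 177 several and 11094 none. The reference table (assembly GRCg7b) held the gene identifiers of 26853 and changed 0 symbols.

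The floor was the 40th percentile of the pooled signals, and the threshold was the 2-fold of the study's methods. Those methods also set a p-value limit over biological replicates, which was not applied here. A gene was represented by its brightest probe set (mean log2 signal over the arrays). The number of probe sets at or above the floor was 22610 in HH9 NCC, 23437 in HH16-titled NCC and 23143 in HH19-titled NCC. Likeness of patterns was the Euclidean distance of floored, centred log2 signals among genes of at least 2 times the floor on 1 array. Named genes were the 7 cadherins with every probe set, up to 3 genes of largest ratio per list, and genes beside a result or a small count, which were picked with their values seen. The members and lists were chosen with earlier results of these data known. Ratios and calls were tested on simulated data. Alternatives were median centring, quantile normalization, other floors, a threshold of 3-fold, no probe sets with the suffixes of shared or variant transcripts, and the median over a gene's probe sets. Python 3.11.15, numpy 2.4.6, pandas 2.3.3, scipy 1.17.1 and matplotlib 3.10.9 were used.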

Additional observations from a re-analysis of the deposited data

How the results depend on the processing

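Of 138 log2 ratios of single cadherins recomputed under the alternatives, 0 that were at least 2-fold changed sign. Many of them could not: moving or removing the floor never turns a sign. For CDH1, CDH5 and CDH7, with 1 probe set each, the median over probe sets changes nothing. CDH4, HH16-titled over HH9 NCC, was the 1 value whose sign turned, at 0.54 by the median over its probe sets, against -0.04. Of the 138, 3 moved by over 1.5-fold, all with the floor at the 60th percentile: CDH1 and CDH5 between the trunk arrays, at -0.17 and -0.56, and CDH5 for HH19-titled over HH9 NCC, at 0.56. With that floor 0 cadherins were 2-fold apart between the trunk arrays, against 2. For CDH1 and CDH5 this was fixed by the floor, because their brightest signals lay less than 2-fold above it. With a 3-fold threshold 1 (CDH5) was left between the trunk arrays and 1 (CDH11) of 4 for HH19-titled over HH9 NCC. Without probe sets ending in _s_at, _x_at or _a_at, 2 of 4 were left for HH19-titled over HH9 NCC: CDH7 then had no probe set, and CDH2 was read by its dimmer one. Both scalings raised the count for HH16-titled over HH9 NCC to 4, against 3, by CDH1. Over all probe sets, 880 were 2-fold apart between the trunk arrays, against 3262 with the floor at the 20th percentile, 374 at the 60th, 7026 with none and 190 at 3-fold. For HH16-titled over HH9 NCC these counts were 2425, against 5317, 1334, 9079 and 829, and for HH19-titled over HH9 NCC 1764, against 4554, 920, 8477 and 515. No array could be left out. No paired analysis was possible because each stage has 1 array. Depth does not apply to arrays, and dim signals limit CDH1, CDH4, CDH5 and CDH20.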

Other observations

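Cadherin genes that neighbour each other in the reference annotation (assembly GRCg7b, order of protein-coding genes only) had these values on the arrays. CDH19 and CDH7 have 0 protein-coding genes between them. Both were higher in HH16-titled NCC than in HH9 NCC, CDH19 by 2.69-fold and CDH7 by 3.16-fold. For HH19-titled over HH9 NCC the log2 ratio of CDH19 was 0.23 and that of CDH7 was 1.43, and for HH16-titled over HH19-titled NCC they were 1.19 and 0.23. CDH5, CDH11 and CDH8 follow each other with 0 protein-coding genes between them. CDH5 was 2.57-fold higher in HH19-titled NCC than in HH9 NCC, CDH11 was 5.80-fold lower, and CDH8 had a log2 ratio of -0.58. The CDH8 value comes from a probe set ending in _x_at. CDH3 and CDH1, also with 0 genes between them, both had HH16-titled NCC lowest, with log2 ratios of -1.65 and -1.11 for HH16-titled over HH19-titled NCC. CDH6 and CDH9, and CDH10 and CDH12, have 0 genes between them too. CDH9 and CDH12 were under the floor on every array, so these pairs could not be compared.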
